A study of Mus musculus with 13 samples.

Results

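The genes described here are 34 genes of the peroxisome, out of 34419 genes in the count table, and their RNA was measured in gluteal white adipose tissue (WAT), a subcutaneous depot at the rear of the mouse. They were listed by name for their roles in peroxisome assembly, membrane transport, fatty acid oxidation and ether lipid synthesis, and no measured value enters the list, although earlier results of these data were known when it was made. All 34 were found in the table, and 33 had enough counts to be tested. The mice were of the C57BL/6J strain, with no transgene named in the labels, and lived at either 22°C (7 mice) or 29°C (6 mice) until they were 13 weeks of age. All of them had hair removed from the rear of the body after weaning, and the methods state that they were housed singly with little bedding. The labels treat each mouse as a sample of its own. The comparison asks whether the cooler housing, below thermoneutrality for a mouse, altered the level of each peroxisome transcript in this depot.

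Peroxisomes are small single-membrane organelles that shorten very-long-chain and branched fatty acids, break down the hydrogen peroxide made on the way, and carry out the early steps of ether lipid (plasmalogen) synthesis. Their membrane and matrix proteins are made in the cytosol and brought in by peroxins, the products of the Pex genes. Unlike mitochondria, they shorten fatty acids without coupling the first oxidation step to ATP synthesis, and the products are passed on to mitochondria as carnitine or free acid forms. In white adipocytes they lie close to the lipid droplets, and many of their enzymes are targets of the PPAR family of nuclear receptors.

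Total counts were between 22356637 and 25245785 per library. Those of 5 of the 7 mice at 22°C (replicates 1 to 5) lay between 22356637 and 22857079, whereas the other 2 and all 6 mice at 29°C lay between 24821549 and 25245785. Over these unscaled totals a count of 3 is worth between 0.119 and 0.134 CPM (counts per 1000000 counts). All other CPM values here use library sizes scaled by TMM, a normalization between libraries. The lowest count of any tested peroxisome gene in any mouse was 189, whereas Acox2 had 16 counts or fewer in every mouse. The tissue showed the markers of white fat, with Adipoq at 1599 to 3094 CPM over the 13 mice, whereas the brown fat gene Ucp1 was at 0.369 CPM or below at 22°C and at 0 in all 6 mice at 29°C. All 15 skeletal muscle markers had counts, and their summed level was between 767 and 83560 CPM at 22°C and between 114 and 6629 CPM at 29°C. The highest sums were those of 22°C replicate 1 (60828 CPM) and replicate 7 (83560 CPM). Of 8 tested brown and beige markers, 7 had estimates above 0 at 22°C relative to 29°C, and edgeR called 3 higher (Cidea, Cox8b and Otop1). It called 1.94% of all tested genes at the same limit, an adjusted p below 0.1. At an unadjusted p below 0.05 there were 6 of the 8, beside 18.5% of all tested genes. The summed level of all 10 listed markers was 65.0 to 342 CPM at 22°C and 39.5 to 63.7 CPM at 29°C. Of the markers of other cells, 0 of 8 for macrophages, 0 of 6 for endothelium and 0 of 4 tested for epithelium were called. For lymphocytes 1 of 6 was called (Cd3e, which rose), and of 10 adipocyte genes only Lep, which fell at 22°C. All 6 lymphocyte markers had estimates above 0. Their summed level was low, at 1.85 to 19.6 CPM at 22°C and 1.64 to 13.6 CPM at 29°C.

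None of the 33 tested peroxisome genes changed with housing temperature at an adjusted p below 0.1. This was the outcome of edgeR's quasi-likelihood test with Benjamini-Hochberg adjustment over 17779 genes, of which 345 (1.94%) were called. Of the 33 genes, 14 (42.4%) were higher and 19 lower at 22°C, while 51.6% of all tested genes were higher. The median log2 fold change of the 33, 22°C relative to 29°C, was -0.02, beside 0.0074 over all genes tested. The smallest fold was 0.755, for Far1, and the largest 1.29, for Pex16. At an unadjusted p below 0.05 there were 6 peroxisome genes, or 18.2%, and 18.5% of all tested genes met the same limit. The 2 groups of mice overlapped for every peroxisome gene, and were fully separated for 1.24% of all tested genes.

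The choice of test mattered for 3 of these genes. DESeq2, run on the same counts, called 10.2% of the genes to which it gave an adjusted p, and among the tested peroxisome genes it called Far1 (adjusted p = 0.0252), Pex5 (adjusted p = 0.0403) and Abcd2 (adjusted p = 0.0675), which is 9.09% of them. Limma on the regularized log2 values called 0. With the muscle marker score as a covariate, edgeR again called 0, and an unadjusted p below 0.05 was found for 7 of the 33 genes (21.2%), beside 11.5% of all genes tested. These were Far1, Pex5, Pex16 (log2 fold change 0.57, adjusted p = 0.201), Hacl1 (0.37, adjusted p = 0.193), Pex14 (0.22, adjusted p = 0.395), Pex3 (0.19, adjusted p = 0.297) and Pex19 (0.18, adjusted p = 0.347), while Abcd2, Pxmp2, Agps and Gnpat were no longer among them. In the comparison without covariates, the 95% interval of the log2 fold change stayed within ±0.5 for 30 of the 33 genes, the exceptions being Pex16, Pxmp2 and Far1, and within ±0.25 for 11 of them. The median standard error was 0.10 for the peroxisome genes and 0.13 for all tested genes. In the GENCODE annotation at hand, over 10% of the exon bases were shared with another gene for Pex11g (41.1%), Hacl1 (33.3%), Pex14 (28.3%), Acot8 (12.3%) and Pxmp2 (10.8%). Reads from the shared bases cannot be told apart while the strand setting is unknown. For Hacl1 some of the sharing was with a gene on the same strand, where the strand setting would not part the reads. The tissue was measured in bulk, so fewer adipocytes and less RNA per adipocyte cannot be told apart in any value given here.

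**Figure D1:**
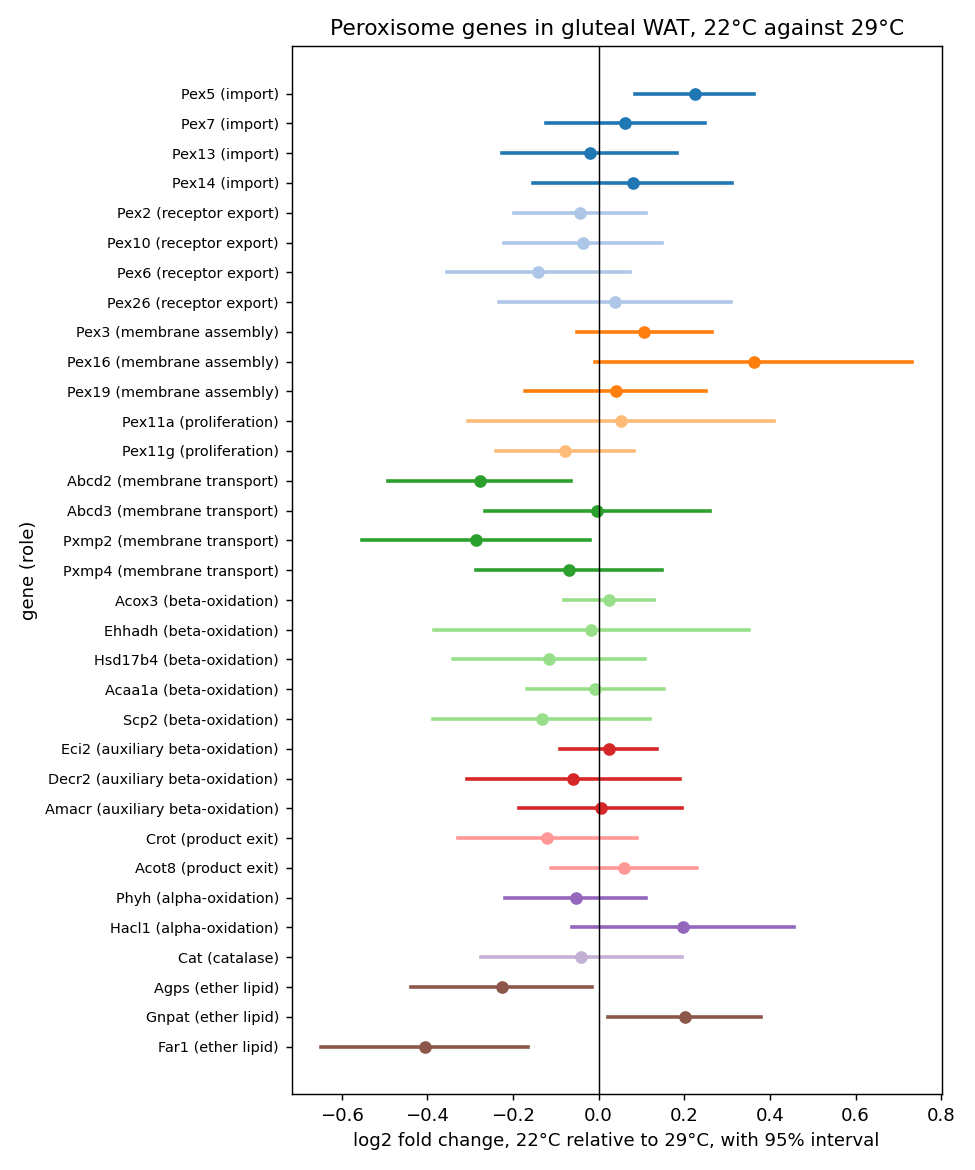
Log2 fold change of each of the 33 tested peroxisome genes (x axis, 22°C relative to 29°C) by gene and role (y axis), with a point for the estimate and a line for its 95% interval. Intervals of Far1, Abcd2, Pxmp2 and Agps lie wholly below 0 and those of Pex5 and Gnpat wholly above 0, before adjustment for the number of genes tested.

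Levels can be compared between genes only per length, here as CPM per kilobase of exon. On that scale Cat, which encodes catalase, the enzyme that splits hydrogen peroxide, stood highest at 304 CPM per kilobase over all 13 mice. It was followed by Scp2 (166), which encodes a sterol carrier and a thiolase, Abcd2 (127), a transporter of very-long-chain acyl-CoA, and Phyh (87.1), the first enzyme of phytanic acid alpha-oxidation. The lowest and highest mouse were at 250.4 and 388 CPM per kilobase for Cat, and at 127 and 216 for Scp2, so those 2 did not overlap. Abcd2, at 93.6 to 159, overlapped Scp2 and also Phyh, at 72.0 to 102. A middle group of Hsd17b4 (66.3), Gnpat (62.3) and Pex19 (60.1) overlapped each other throughout. At the lower end Pex26 (2.82) and Pex7 (1.93) were the least abundant of the genes tested. Using the longest coding transcript as the length left Cat, Scp2, Abcd2 and Phyh in the same order and moved no gene by more than 7 places among 34.

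**Figure D2:**
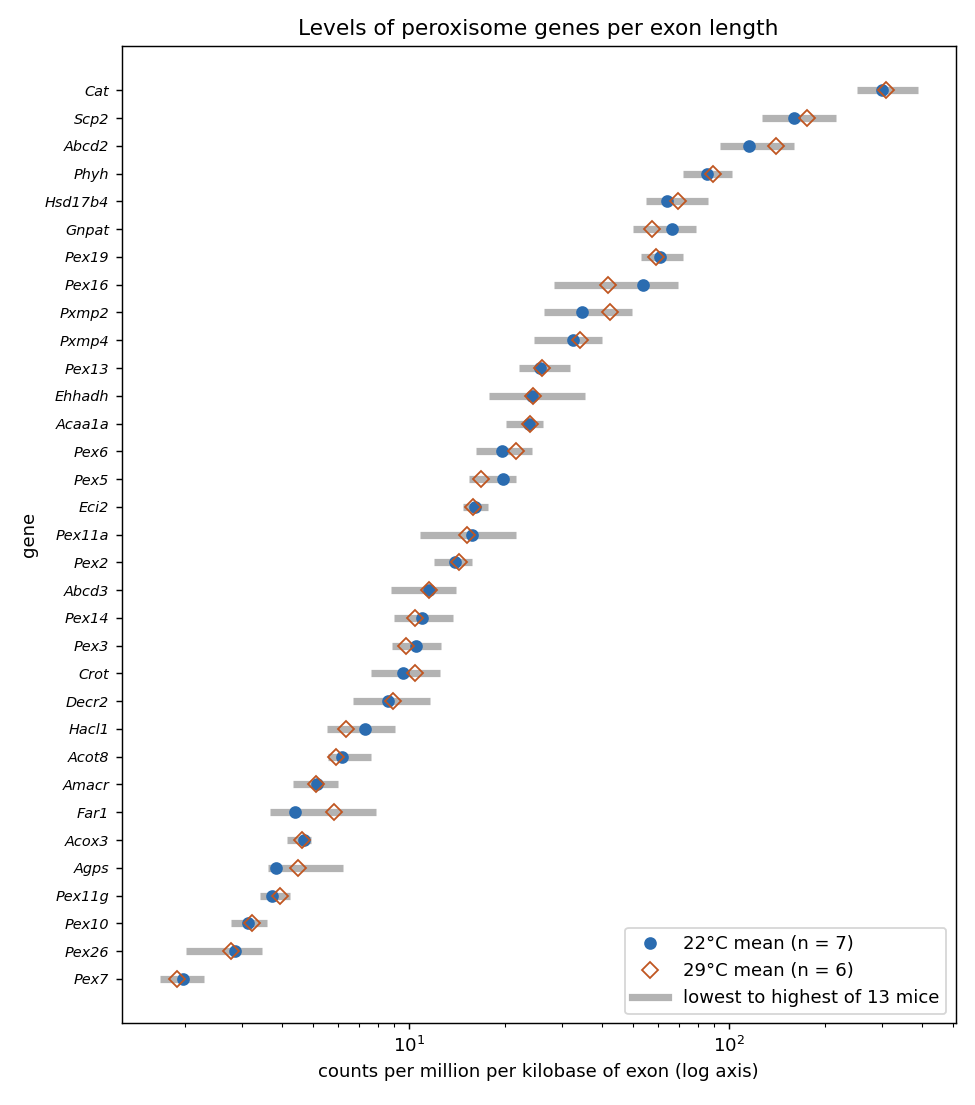
Level of the 33 tested peroxisome genes in CPM per kilobase of exon (x axis, logarithmic), in order of level (y axis). Filled circles are means of the 7 mice at 22°C, open diamonds means of the 6 mice at 29°C, and grey bars run from the lowest to the highest of 13 mice; Cat, at 304, is the most abundant.

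Of the import genes, Pex5 encodes the cytosolic receptor that recognizes most matrix enzymes. It measured 68.6 CPM in the lowest mouse at 22°C, 77.9 at the median and 85.5 in the highest, against 60.8, 66.7 and 71.7 CPM at 29°C. All 7 mice at 22°C lay above the 29°C median, and 5 of them above every mouse at 29°C, so the groups overlapped only at their edges. The log2 fold change was 0.22 with a standard error of 0.06, the 95% interval ran from 0.09 to 0.36, and the edgeR adjusted p was 0.123. Pex13, part of the docking complex at the peroxisomal membrane and the most abundant import gene in CPM, covered much the same range in both groups. It ran from 105 over 117 to 147 CPM at 22°C and from 103 over 122 to 141 CPM at 29°C, with a log2 fold change of -0.02 (standard error 0.09, edgeR adjusted p = 0.932). Pex14, its docking partner, had a log2 fold change of 0.08 over a range of 56.3 to 86.1 CPM. Pex7, the receptor for the smaller class of enzymes that includes Phyh and Agps, had 0.06 over 20.1 to 27.6 CPM, and 0.24 with a term for the library-total cluster (adjusted p = 0.364). Of the 4 import genes, Pex5 alone had an unadjusted p below 0.05, beside 18.5% of all tested genes. Differences between genes were not tested.

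The export genes return the receptor to the cytosol. Pex2 and Pex10 encode ubiquitin ligases, Pex6 an ATPase that pulls the receptor out of the membrane, and Pex26 its membrane anchor. Pex6, the most abundant, was at 61.6, 72.4 and 92.1 CPM in the lowest, median and highest mouse at 22°C and at 71.3, 81.1 and 91.5 CPM at 29°C. The lowest 3 mice at 22°C were below all mice at 29°C, but the highest mouse of all was also at 22°C. Its log2 fold change was -0.14 (standard error 0.10, edgeR adjusted p = 0.476). The other 3 were close to 0, with log2 fold changes of -0.04 for Pex2 (27.2 to 35.7 CPM), -0.04 for Pex10 (9.14 to 11.9 CPM) and 0.04 for Pex26 (11.4 to 19.8 CPM).

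Pex3, Pex16 and Pex19 build the membrane itself: Pex19 escorts membrane proteins from the cytosol, Pex3 receives it, and Pex16 is needed for membrane assembly in animal cells. Estimates for the 3 were above 0, as were those of 51.6% of all tested genes. Pex16 had the largest estimate of all peroxisome genes and also the largest standard error. Its lowest, median and highest values were 72.9, 94.8 and 123 CPM at 22°C and 50.4, 70.8 and 113 CPM at 29°C. All 7 mice at 22°C were above the 29°C median, but only 1 was above the highest mouse at 29°C, replicate 6. The log2 fold change was 0.36 with a standard error of 0.17, an interval from -0.01 to 0.73, and an edgeR adjusted p of 0.279. Leaving out 29°C replicate 6 gave 0.52 (adjusted p = 0.137), and leaving out 29°C replicate 4, the lowest mouse, gave 0.27 (adjusted p = 0.420).

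Pex19, the most abundant assembly gene, ran from 205 over 213 to 275 CPM at 22°C and from 203 over 225 to 272 CPM at 29°C, so the groups covered nearly the same range. Its log2 fold change was 0.04 (standard error 0.10, edgeR adjusted p = 0.861). Pex3 was at 43.7, 49.6 and 59.5 CPM at 22°C and at 41.8, 47.4 and 50.5 CPM at 29°C, with a log2 fold change of 0.11 (standard error 0.07, edgeR adjusted p = 0.459). The proliferation genes encode proteins that elongate the membrane before division. Pex11a, the inducible form, ran from 34.4 over 50.9 to 63.0 CPM at 22°C and from 34.7 over 47.4 to 68.9 CPM at 29°C. Its log2 fold change of 0.05 had a wide interval, from -0.30 to 0.41 (edgeR adjusted p = 0.895), since mice of the same temperature differed by more than the groups did. Pex11g had -0.08 over 11.6 to 14.4 CPM.

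All 4 genes of membrane transport had estimates below 0, that of Abcd3 very close to it, while 51.6% of all tested genes had estimates above 0. An unadjusted p below 0.05 was found for 2 of them, Abcd2 and Pxmp2, beside 18.5% of all tested genes. With the muscle marker score as a covariate, the estimates of Abcd3 (0.028) and Pxmp4 (0.066) were above 0. In that edgeR fit neither Abcd2 (unadjusted p = 0.0996) nor Pxmp2 (unadjusted p = 0.105) met the limit, beside 11.5% of all tested genes. Abcd2 encodes an ABC transporter for very-long-chain and unsaturated acyl-CoA and is abundant in fat. It was at 557, 678 and 824 CPM in the lowest, median and highest mouse at 22°C and at 713, 819 and 948 CPM at 29°C. The lowest 4 mice at 22°C were below all those at 29°C, and 6 of 7 were below the 29°C median. The log2 fold change was -0.28, a fold of 0.825, with a standard error of 0.10, an interval from -0.49 to -0.06 and an edgeR adjusted p of 0.185. With the muscle marker score as a covariate it was -0.16 (adjusted p = 0.528). Summed muscle markers had a median of 6727 CPM at 22°C and 1416 CPM at 29°C. All 15 had estimates above 0, with log2 fold changes from 2.31 to 3.73. By edgeR 0 of the 15 were called, beside 1.94% of all tested genes. At an unadjusted p below 0.05 there were 8 of them, beside 18.5% of all tested genes. The part of muscle RNA in the Abcd2 difference was not tested further.

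Pxmp2, a channel of the peroxisomal membrane for small solutes, was at 36.1, 40.7 and 47.6 CPM at 22°C and at 31.6, 52.5 and 59.9 CPM at 29°C. All 7 mice at 22°C lay below the 29°C median, but the lowest mouse of all, replicate 4, was at 29°C and stood 18.3 CPM under the next. The log2 fold change was -0.29 (standard error 0.12, interval -0.55 to -0.02, edgeR adjusted p = 0.240). Without that 1 mouse it was -0.39 and passed the limit (adjusted p = 0.0786). Abcd3, the transporter of branched and long-chain acyl-CoA and a major protein of the peroxisomal membrane, covered the same range in both groups. It was at 57.8, 81.0 and 92.8 CPM at 22°C and at 60.3, 75.3 and 91.2 CPM at 29°C, with a log2 fold change of -0.0031 (standard error 0.12, interval -0.27 to 0.26, edgeR adjusted p = 0.994). Pxmp4 had -0.07 over 76.8 to 125 CPM.

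Beta-oxidation in the peroxisome begins with an acyl-CoA oxidase, goes on through a bifunctional enzyme (Ehhadh or Hsd17b4) and ends with a thiolase (Acaa1a or the long product of Scp2). None of the 5 tested core genes had an unadjusted p below 0.05, a limit that 18.5% of all tested genes met. Scp2, the most abundant in CPM, was at 442, 553 and 624 CPM at 22°C and at 452, 592 and 751 CPM at 29°C, with a log2 fold change of -0.13 (standard error 0.12, edgeR adjusted p = 0.585). Hsd17b4, which acts on very-long-chain and bile acid substrates, had -0.12 over 187 to 293 CPM, and Ehhadh, the other bifunctional enzyme, -0.02 over 53.2 to 106 CPM. Acaa1a had -0.01 over 88.8 to 116 CPM, though reads may be shared with its close paralog Acaa1b. Acox3, the oxidase for branched chains, had the narrowest interval of all 33 genes, from -0.08 to 0.13, around 0.02.

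Acox2, the oxidase for bile acid intermediates, is chiefly a liver gene and had too few counts to be tested. Counts in replicates 1 to 7 at 22°C were 14, 2, 11, 3, 3, 16 and 9, and in replicates 1 to 6 at 29°C they were 3, 1, 0, 1, 8 and 9. With no filter on low counts it had an unadjusted p of 0.0862 and an edgeR adjusted p of 0.475, so no difference was detectable at this depth. Of the auxiliary enzymes, which let unsaturated and branched acids enter the cycle, Eci2 was at 81.8, 88.7 and 97.5 CPM at 22°C and at 82.4, 88.5 and 93.3 CPM at 29°C. Its log2 fold change of 0.02 had a standard error of 0.05 and an edgeR adjusted p of 0.842. Decr2 had -0.06 over 17.7 to 30.9 CPM and Amacr, the racemase, 0.0048 over 11.3 to 15.6 CPM.

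Chain-shortened products leave as carnitine esters, made by Crot, or as free acids, released by Acot8. Crot was at 41.6, 53.6 and 58.8 CPM at 22°C and at 50.9, 54.8 and 68.3 CPM at 29°C, with a log2 fold change of -0.12 (standard error 0.10, edgeR adjusted p = 0.549). Acot8 had 0.06 over 11.1 to 15.2 CPM. In alpha-oxidation, which removes 1 carbon from branched acids, Phyh was at 136, 162 and 194 CPM at 22°C and at 157, 166 and 183 CPM at 29°C, with a log2 fold change of -0.05 (standard error 0.08, edgeR adjusted p = 0.752). Hacl1, the lyase of the same pathway, was at 30.0, 34.3 and 44.8 CPM at 22°C and at 27.4, 29.4 and 42.5 CPM at 29°C. All 7 mice at 22°C were above the 29°C median, but 29°C replicate 6, at 42.5 CPM, was above 5 of them, and the log2 fold change was 0.20 (standard error 0.12, interval -0.06 to 0.46, edgeR adjusted p = 0.405). It was 0.30 without that mouse (adjusted p = 0.194) and 0.37 with the muscle score as a covariate (adjusted p = 0.193).

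Cat was at 654, 758 and 959 CPM at 22°C and at 716, 779.6 and 1015 CPM at 29°C. The most abundant of the 34 genes per length therefore covered much the same range at either temperature, and its log2 fold change was -0.04 (standard error 0.11, interval -0.28 to 0.20, edgeR adjusted p = 0.878).

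Each of the 3 ether lipid genes had an unadjusted p below 0.05 in the comparison without covariates, and the directions differed among them. Of 9 further ether lipid genes in that comparison 1 did, and so did 18.5% of all tested genes. With the muscle score as a covariate Far1 alone of the 3 did, beside 11.5% of all tested genes. The edgeR adjusted p was then 0.270 for Far1, 0.520 for Agps and 0.526 for Gnpat. Gnpat and Agps encode the first and second enzymes, which sit together in the peroxisome, and Far1 encodes the reductase that supplies the fatty alcohol and sets the rate of the pathway. The 60 bases that end just before the RefSeq start of each gene are shown so that the 3 can be compared at their starts. They are from GRCm38.p6, on the plus strand, at chr8:124862973-124863032 (Gnpat), chr2:75832117-75832176 (Agps) and chr7:113513774-113513833 (Far1). Capitals mark CCAAT and GGGCGG on either strand.
Gnpat: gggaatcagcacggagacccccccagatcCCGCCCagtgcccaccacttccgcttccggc
Agps: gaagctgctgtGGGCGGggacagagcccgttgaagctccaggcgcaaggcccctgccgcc
Far1: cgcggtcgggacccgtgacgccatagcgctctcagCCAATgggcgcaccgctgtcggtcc
Gnpat and Agps each held GGGCGG in these 60 bases and Far1 held CCAAT, but in the 250 bases before the start all 3 held GGGCGG, and both Agps and Far1 held CCAAT. Over that longer stretch, searched on both strands, GGGCGG was held by 21 of the 28 peroxisome genes with a RefSeq promoter (75.0%) and by 60.2% of 11879 tested genes with one. CCAAT was held by 14 of 28 (50.0%) and by 39.6%. The core of the PPAR element, AGGNCA repeated after 1 base, was in 0 of 28 and in 0.303% of tested genes, and these letters in this window say nothing of sites elsewhere.

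Far1 had the smallest p of the peroxisome genes. It was at 29.6, 35.1 and 41.1 CPM in the lowest, median and highest mouse at 22°C and at 39.4, 43.8 and 63.6 CPM at 29°C. Of the 7 mice at 22°C, 6 were below every mouse at 29°C. The log2 fold change was -0.41, a fold of 0.755, with a standard error of 0.11, an interval from -0.65 to -0.16 and an edgeR adjusted p of 0.116. Without 22°C replicate 6, the highest at that temperature, the adjusted p was 0.0854. Without 29°C replicate 2, the highest mouse of all, the log2 fold change was -0.30 (adjusted p = 0.195).

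Agps was at 34.1, 36.5 and 40.8 CPM at 22°C and at 37.1, 39.7 and 58.5 CPM at 29°C. The lowest 5 mice at 22°C were below all at 29°C. Its log2 fold change was -0.23 (standard error 0.10, interval -0.44 to -0.02, edgeR adjusted p = 0.242), and the highest value again belonged to 29°C replicate 2, without which the estimate was -0.11 (adjusted p = 0.366). Gnpat lay the other way. It was at 210.1, 227 and 284 CPM at 22°C and at 179.8, 213 and 221 CPM at 29°C, 5 of 7 mice at 22°C were above all at 29°C, and the log2 fold change was 0.20 (standard error 0.08, interval 0.02 to 0.38, edgeR adjusted p = 0.223). Once the fit carried a term for the library-total cluster, Gnpat had 0.13 (adjusted p = 0.719) while Far1 had -0.30 (adjusted p = 0.479) and Agps -0.30 (adjusted p = 0.414).

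**Figure D3:**
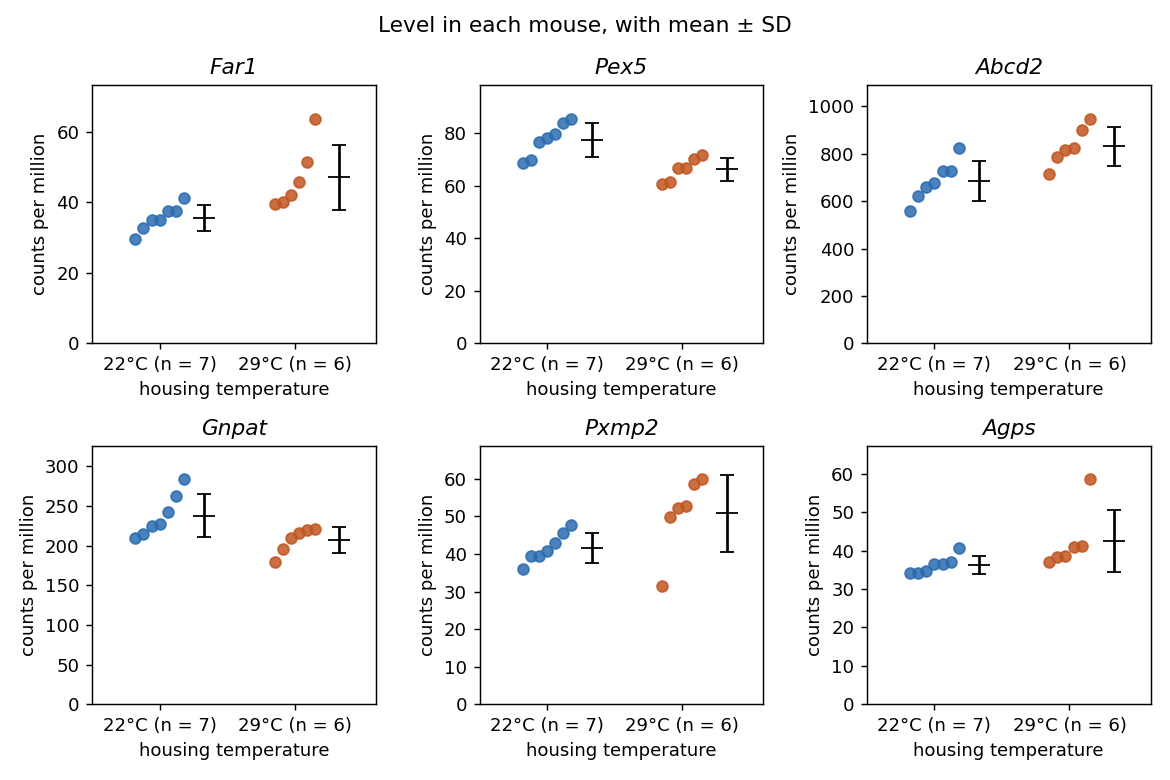
Level in CPM (y axis, from 0) of the 6 peroxisome genes with an unadjusted p below 0.05, by housing temperature (x axis). Each point is 1 mouse, in order of value, and the bar beside each group is the mean ± SD; 29°C replicate 2 gives the highest point for Far1 (63.6) and Agps (58.5), and 29°C replicate 4 the lowest for Pxmp2 (31.6).

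Mice differed from each other across many peroxisome genes at once. At 29°C, replicate 6 was the highest of its group for 19 of the 33 genes and replicate 4 the lowest for 22. At 22°C, replicate 3 was the highest for 16, while replicate 4 was the lowest for 11 and replicate 2 for 9. The mean deviation of the 33 genes from their means over all mice ran from -0.17 (29°C replicate 4) to 0.17 (29°C replicate 6) on the log2 CPM scale, and at 22°C from -0.16 (replicate 4) to 0.16 (replicate 3). Each temperature thus held mice at both ends. Summed over all 34 genes, the level was 3833 to 4950 CPM at 22°C, with a median of 4137, and 3838 to 5219 CPM at 29°C, with a median of 4447. The 2 mice with the highest muscle markers had mean deviations of -0.03 (22°C replicate 1) and -0.10 (22°C replicate 7). With both left out, 0 peroxisome genes were called and the median log2 fold change was 0.01.

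**Figure D4:**
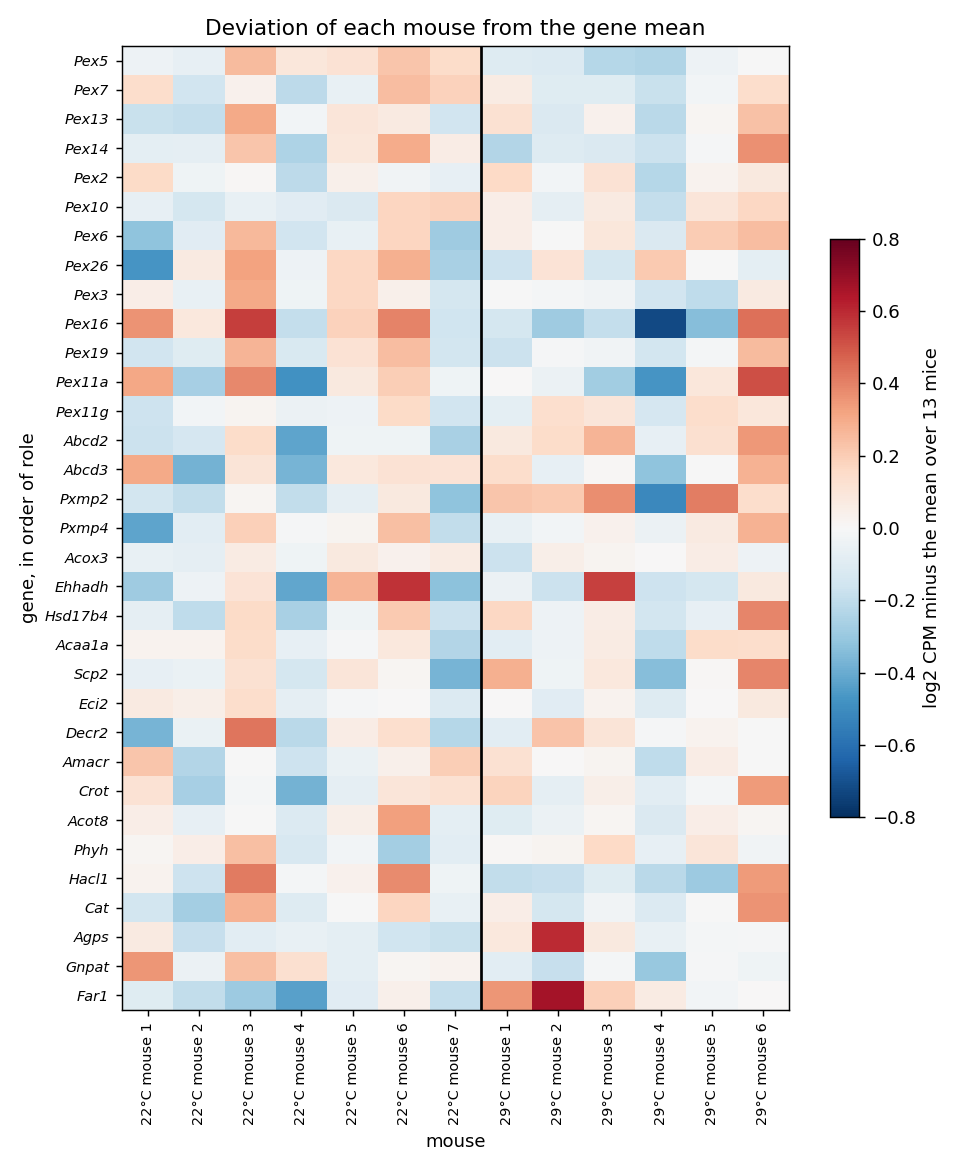
Log2 CPM of each tested peroxisome gene (y axis, in order of role) in each of the 13 mice (x axis), as the difference from the mean of the gene over all mice. The black line parts 22°C from 29°C; columns of mostly 1 colour are mice that were high or low across genes, such as 29°C replicate 6 (mean 0.17) and replicate 4 (mean -0.17).

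Beside these 34, a list of 73 further genes of peroxisome division, matrix enzymes, ether lipids and regulators was examined, of which 70 were found by symbol and 62 were tested. Of these, 37 had an estimate above 0 and 25 below it, while 51.6% of all tested genes were above 0. The median of the 62 was 0.07 on the log2 scale, and 13 had an unadjusted p below 0.05 (21.0%, beside 18.5% of all tested genes). The only one called was Mlycd, which encodes malonyl-CoA decarboxylase, an enzyme of peroxisomes, mitochondria and cytosol that removes the inhibitor of mitochondrial fatty acid uptake. Mlycd rose at 22°C. It was at 45.5, 50.9 and 58.3 CPM at 22°C and at 35.6, 41.0 and 45.7 CPM at 29°C, and only the edges of the groups met. The log2 fold change was 0.34 (standard error 0.07, edgeR adjusted p = 0.0724). The call ended with the replicate block (adjusted p = 0.121), with the muscle score as a covariate (adjusted p = 0.189), with a term for the library-total cluster (adjusted p = 0.271), among libraries with higher totals (adjusted p = 0.282), with no filter on low counts (adjusted p = 0.151), without the 2 muscle-rich mice (adjusted p = 0.125), and in 7 of the 13 fits that left out 1 mouse (22°C replicate 1, 3 or 7, or 29°C replicate 1, 2, 3 or 4, with an adjusted p of up to 0.163). Whichever mouse was left out, its log2 fold change stayed between 0.30 and 0.37.

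Among the regulators, Ppara, the nuclear receptor that drives peroxisomal oxidation genes in liver, was at 5.24, 7.69 and 8.93 CPM at 22°C and at 4.36, 5.78 and 7.24 CPM at 29°C, with a log2 fold change of 0.33 (standard error 0.15, edgeR adjusted p = 0.251), or 0.15 with a term for the library-total cluster (adjusted p = 0.813). Pparg, the adipocyte form and far more abundant, had -0.20 (standard error 0.10, edgeR adjusted p = 0.310). Ppargc1a, a coactivator of oxidative genes, was at 6.43, 15.1 and 26.6 CPM at 22°C and at 6.13, 7.46 and 16.4 CPM at 29°C, with a log2 fold change of 0.87 (standard error 0.31, edgeR adjusted p = 0.187). It was 0.56 with the muscle score as a covariate (adjusted p = 0.525) and 0.46 with a term for the library-total cluster (adjusted p = 0.711). DESeq2 called 6 of the 62 (9.68%), beside 10.2% of all genes. Of these, 5 are named here after their values were seen, and they were Ppargc1a (adjusted p = 0.0663), Mlycd (0.00688) and Esrra (0.0995), higher at 22°C, and Acaa1b (0.0254) and Trim37 (0.0740), lower. Acaa1b, the thiolase paralog of Acaa1a, had a log2 fold change of -0.56 (standard error 0.16, edgeR adjusted p = 0.118), against -0.01 for Acaa1a.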

How the data were processed

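RNA of gluteal WAT from 13 mice (7 at 22°C, 6 at 29°C) was sequenced, and groups and replicate numbers were taken from the submitters' labels. The authors deposited raw counts of 34419 genes and regularized log2 values of the same genes. The submitters' processing notes name STAR 2.7.5a, featureCounts, DESeq2 and GRCm39, and the annotation and strand setting are not given in the sources used here. Symbols were matched by Ensembl identifier without version (34006 genes). Exon lengths and overlaps came from GENCODE M21 on GRCm38, and promoters from RefSeq (GRCm38.p6), which held 28 of the 34 genes, so no position of a count is given.

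The 34 genes and all lists were chosen with earlier results of these data known. Counts were compared with edgeR 4.0.16 in R 4.3.3 (TMM, filterByExpr, quasi-likelihood F test, no covariate), with Benjamini-Hochberg adjustment over 17779 genes and a limit of 0.1 on the adjusted p. Standard errors were obtained as the absolute log2 fold change divided by the root of the F statistic. Library sizes scaled by TMM gave CPM, with a prior count of 2 where the log2 of CPM was taken. P-values set the difference between temperatures against the spread between these mice. Without a covariate they do not account for the library-total cluster or for any pairing of mice. The chi-square per gene was 17.1 or more in each of 78 library pairs, so each library was counted as 1 sample.

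Values are given in full for called genes, the 10 with the smallest p, Pex5, Abcd3, Cat and the most abundant gene in CPM of each role. Other peroxisome genes are named where called, with Ppara, Pparg and Ppargc1a. Alternatives were DESeq2 1.42.0, its size factors in edgeR, no filter, a mean of at least 10 counts, a replicate block, leaving out each mouse in turn, a covariate for the muscle score or for the library-total cluster, only libraries with higher totals, limma 3.58.1 on the deposited log2 values, and an adjusted p below 0.05. Leaving out the pair of mice with the most muscle RNA was added after seeing the data. The tests were tried on simulated counts with known changes. The value given for 3 counts covers counting error only. A result for 1 of the further genes is not reported here.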

Additional observations from a re-analysis of the deposited data

Results flagged for a closer look

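Each group of 6 or 7 mice was examined for a mouse at either end whose gap to the nearest of the others was a large share of the whole range, by Dixon's 95% critical value. Of 76 groups examined, for 34 peroxisome genes and 4 regulators or enzymes, 10 held such a mouse. Chance gives about 1 in 20 for independent groups, but these were the same mice over genes that varied together. No excess over chance can therefore be read from the 10. In 9 of the 10 the mouse was at 29°C.

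For 5 genes it was 29°C replicate 6, the highest of its group. Cat stood at 1015 CPM in this mouse, against 819.7 CPM in the next. Pex19 was at 272 CPM and next at 226. Pxmp4 was at 125 CPM and next at 108, Pex14 at 86.1 and next at 66.4, and Hacl1 at 42.5 and next at 31.4. This mouse had the lowest summed muscle markers of all 13 (114 CPM), and any link between that and its high values was not tested.

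29°C replicate 2 was the highest for Agps, at 58.5 CPM against 41.1 in the next. 29°C replicate 3 was the highest for Ehhadh, at 104 CPM against 74.9. 29°C replicate 4 was the lowest for Pxmp2, at 31.6 CPM against 49.9. 29°C replicate 5 was the highest for Ppargc1a, at 16.4 CPM against 8.14. At 22°C, replicate 6 was the highest for Acot8, at 15.2 CPM against 12.5.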

How the results depend on the processing

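The number of peroxisome genes called was 0 under every alternative other than DESeq2, which called 3, and the fits without 1 mouse, which called 0 to 1 (Far1 without 22°C replicate 6, Pxmp2 without 29°C replicate 4). The median log2 fold change stayed between -0.06 and 0.05, and from 11 to 20 genes were higher at 22°C. Of the further peroxisome genes, 1 was called in the main comparison and 6 by DESeq2. It was 0 at an adjusted p below 0.05, with no filter, with the replicate block, with the muscle score, with the library-total cluster, in the libraries with higher totals and without the pair of muscle-rich mice, and 0 to 2 without 1 mouse. Mlycd kept its direction throughout. The cause of these shifts was not tested. Only 2 mice at 22°C remain among the libraries with higher totals, and the lower cluster holds mice at 22°C alone.

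The labels do not say that a replicate number marks a shared litter or day, and the deviations of same-numbered mice correlated at 0.35 to 0.51 for 5 of 6 pairs but at 0.05 for replicate 5, so the numbers were not taken to pair the mice. That 7 of 12 mice correlated best with their own number is a hint of pairing from the data, not the design. With the replicate block the median log2 fold change was -0.03 and 214 genes were called in all, against 345 without it. Beside 18.5% of all tested genes, 7 peroxisome genes (21.2%) had an unadjusted p below 0.05 in edgeR's test under the block. Pex16 (adjusted p = 0.109), Hacl1 (adjusted p = 0.196) and Crot (adjusted p = 0.202) joined them, and Agps (adjusted p = 0.360) and Pxmp2 (adjusted p = 0.300) left. Over all genes, DESeq2 called 1676, the fit with no filter 42, the muscle score 44, the library-total cluster 4, the libraries with higher totals 8, and the fits without 1 mouse from 32 (29°C replicate 3) to 652 (22°C replicate 6).

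Genes with an estimate near 0 changed sign, as did Crot (-0.12 in the main comparison) and Pex3 (0.11). The lowest adjusted p in the fits named next was 0.556, by edgeR (Pex11a without 29°C replicate 6). With no filter the log2 fold change was -0.0014 for Amacr. With the replicate block it was 0.0011 for Pex13, 0.019 for Ehhadh, 0.032 for Acaa1a and -0.034 for Amacr. With the muscle score it was 0.075 for Pex13, 0.028 for Abcd3, 0.066 for Pxmp4, 0.16 for Ehhadh, 0.052 for Acaa1a, 0.067 for Decr2, -0.049 for Amacr and 0.070 for Cat. With the library-total cluster it was 0.16 for Pex10, 0.096 for Abcd3, 0.15 for Ehhadh, -0.040 for Eci2, 0.037 for Crot and 0.029 for Cat. In the libraries with higher totals it was 0.15 for Pex10, -0.0026 for Pex3, 0.087 for Abcd3, 0.14 for Ehhadh, -0.049 for Eci2, 0.028 for Crot and 0.019 for Cat. With limma it was -0.0014 for Amacr. Without the muscle-rich pair it was 0.038 for Pex13, 0.028 for Pxmp4, 0.094 for Ehhadh, 0.027 for Acaa1a, 0.039 for Decr2 and -0.088 for Amacr. Leaving out each mouse gave ranges of -0.078 to 0.027 for Pex13, -0.015 to 0.11 for Pex26, -0.0048 to 0.10 for Pex19, -0.026 to 0.18 for Pex11a, -0.062 to 0.055 for Abcd3, -0.0044 to 0.038 for Acox3, -0.13 to 0.11 for Ehhadh, -0.047 to 0.029 for Acaa1a, -0.034 to 0.042 for Amacr and -0.094 to 0.037 for Cat. The other 23 kept their direction without any 1 mouse.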
